A study of Mus musculus with 4 samples.

Results

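Of these 9 genes for acute-phase and antimicrobial secreted proteins, Saa1, Pigr and Saa2 were between 2.66-fold and 5.48-fold lower in mammary basal cells after a diet with soy protein isolate (SPI) than after one with casein (CAS). Saa3, Hp, Cp and Slpi were lower by smaller amounts, from 1.32-fold to 1.65-fold for all but Cp, whose probe sets ran from 1.09-fold to 1.52-fold. Lcn2 and Pglyrp1 lay close to 0 difference. The genes are Saa1, Saa2, Saa3, Lcn2, Hp, Pglyrp1, Slpi, Pigr and Cp, and each was taken with every probe set that the platform annotation assigns to it alone. This gave 18 probe sets, the groups of short probes that an Affymetrix array reads together, for 9 of the 18193 genes with such a probe set. The Saa2 probe set can also bind related transcripts, as can Saa1 1419075_s_at and Cp 1417495_x_at. The 9 genes were chosen on results of these same arrays, SPI against CAS, so their differences are given as a description, with errors. Counts of them past the threshold of the fit over all probe sets are given beside the share of all probe sets, and are not evidence about these genes.

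All 4 samples were sorted basal cells, a population enriched for mammary stem cells that also holds myoepithelial cells and their progenitors, from mammary glands of mice with the MMTV-Wnt1 transgene on the mixed background labelled B66SJL/HEV/J. In this model the MMTV promoter, which is active in mammary epithelium, drives the Wnt1 ligand, and both diet groups carried it. The control group was fed CAS (2 arrays) and the other SPI (2 arrays). Age, and whether replicates were separate or pooled animals, are not given in the labels, so the spread between arrays of a diet may be technical. The question, from the series title, is whether the diet is associated with lower cytokine and chemokine transcripts in these cells.

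The acute-phase response is the rise of a set of secreted proteins during inflammation. IL-6 type cytokines act on these genes through STAT3, and IL-1 and TNF through NF-kappaB and C/EBP factors. The liver is the main source of serum amyloid A, haptoglobin and ceruloplasmin, but epithelia make several of these proteins too. In the mammary gland, secreted antimicrobial proteins enter milk, and the polymeric immunoglobulin receptor carries IgA across the epithelium.

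Promoters are shown for the genes with the largest differences, Saa1, Saa2, Saa3 and Pigr, and for Lcn2, a gene with almost none. Each runs from 250 bases before to 50 bases after a transcript start, 5′ to 3′, from RefSeq on GRCm38.p6. The table held promoters for 8 of the 9 genes, and Hp had no entry. Capitals mark matches, on either strand, to a kappaB pattern (GGGNNNNTCC), a C/EBP pattern (TTNNGCAA) or a STAT pattern (TTCNNNGAA). No match overlapped another.
Saa1, minus strand, chr7:46742931-46743230: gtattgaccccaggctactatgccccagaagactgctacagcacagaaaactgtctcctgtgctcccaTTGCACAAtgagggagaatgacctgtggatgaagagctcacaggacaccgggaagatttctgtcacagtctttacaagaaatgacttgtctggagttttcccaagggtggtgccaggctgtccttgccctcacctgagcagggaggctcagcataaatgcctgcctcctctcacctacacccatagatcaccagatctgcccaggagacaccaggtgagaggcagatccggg
Saa2, plus strand, chr7:46751583-46751882: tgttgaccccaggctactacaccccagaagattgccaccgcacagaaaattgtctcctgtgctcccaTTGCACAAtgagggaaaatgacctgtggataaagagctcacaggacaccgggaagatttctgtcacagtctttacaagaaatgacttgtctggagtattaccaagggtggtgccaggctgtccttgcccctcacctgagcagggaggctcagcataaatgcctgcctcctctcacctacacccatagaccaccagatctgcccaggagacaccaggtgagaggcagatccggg
Saa3, minus strand, chr7:46715627-46715926: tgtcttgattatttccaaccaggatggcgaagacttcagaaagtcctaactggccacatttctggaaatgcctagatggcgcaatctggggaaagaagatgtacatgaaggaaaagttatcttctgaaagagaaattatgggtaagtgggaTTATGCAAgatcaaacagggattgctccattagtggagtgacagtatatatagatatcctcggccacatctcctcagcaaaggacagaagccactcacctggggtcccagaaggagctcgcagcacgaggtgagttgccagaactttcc
Lcn2, minus strand, chr2:32387690-32387989: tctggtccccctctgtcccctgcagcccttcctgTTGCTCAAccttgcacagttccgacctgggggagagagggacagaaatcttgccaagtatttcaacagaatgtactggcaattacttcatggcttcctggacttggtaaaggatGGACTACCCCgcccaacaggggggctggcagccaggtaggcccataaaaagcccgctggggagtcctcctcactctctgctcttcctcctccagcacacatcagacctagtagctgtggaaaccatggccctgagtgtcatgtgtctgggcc
Pigr, plus strand, chr1:130826434-130826733: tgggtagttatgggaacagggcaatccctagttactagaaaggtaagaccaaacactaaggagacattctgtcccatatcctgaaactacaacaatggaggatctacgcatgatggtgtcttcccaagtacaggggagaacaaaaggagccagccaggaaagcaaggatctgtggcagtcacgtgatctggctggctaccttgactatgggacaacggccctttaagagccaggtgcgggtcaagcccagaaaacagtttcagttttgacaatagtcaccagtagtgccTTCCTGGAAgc

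The Saa1 and Saa2 promoters were 95.3% identical, whereas Saa1 and Saa3 were 54.2% identical, counting gaps. The C/EBP pattern was found in 6 of the 9 promoters of the 8 genes (Saa1, Saa2, Saa3, Lcn2, Slpi and the second of the 2 Cp promoters), against 10.8% of all 32851 promoters of this length. Lcn2 and Pglyrp1 held the kappaB pattern, which 19.2% of all promoters held. The STAT pattern occurred in Pigr alone, after its start, against 8.3% of all promoters. These are matches of letters and no evidence of binding.

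Values are log2 expression values centred on the median of the 4 arrays, so they show differences between arrays and not levels, and the middle 2 values of a probe set always mirror each other around 0. Differences are SPI minus CAS with the 95% interval of the limma fit, a linear model per probe set that shares its estimate of the spread over the table (n = 2 arrays per diet throughout). A probe set counts as called at an adjusted p under 0.05 over all 45037 non-control probe sets. All 18 differences were below 0, and the groups did not overlap in 17 of them, both SPI arrays lying below both CAS arrays, where 20.5% of all probe sets showed this. Of the 18 probe sets 6 were called lower and 0 higher. Over all probe sets 1.25% were called lower and 0.249% higher. The 6 belong to 4 genes, Saa1, Saa2, Saa3 and Pigr, and nothing is read from these counts, since the genes were chosen with this contrast in view. With 1 array left out, limma called 0 of the 18 and 0 of all probe sets. At an unadjusted p under 0.05 there were 12 of the 18 without CAS replicate 1 (14.5% of all probe sets), 9 without CAS replicate 2 (12.7%), then 13 and 12 without the first and the second SPI array (12.2% and 10.8%), and 14 with all 4 arrays (17.8%). Centring on the added hybridization controls, bacterial and phage transcripts put into each sample, turned the split of all calls from 112 higher and 564 lower to 1557 higher and 704 lower. With 2 against 2 arrays a two-sided exact permutation test of a single probe set could not go below p = 0.333.

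**Figure D1:**
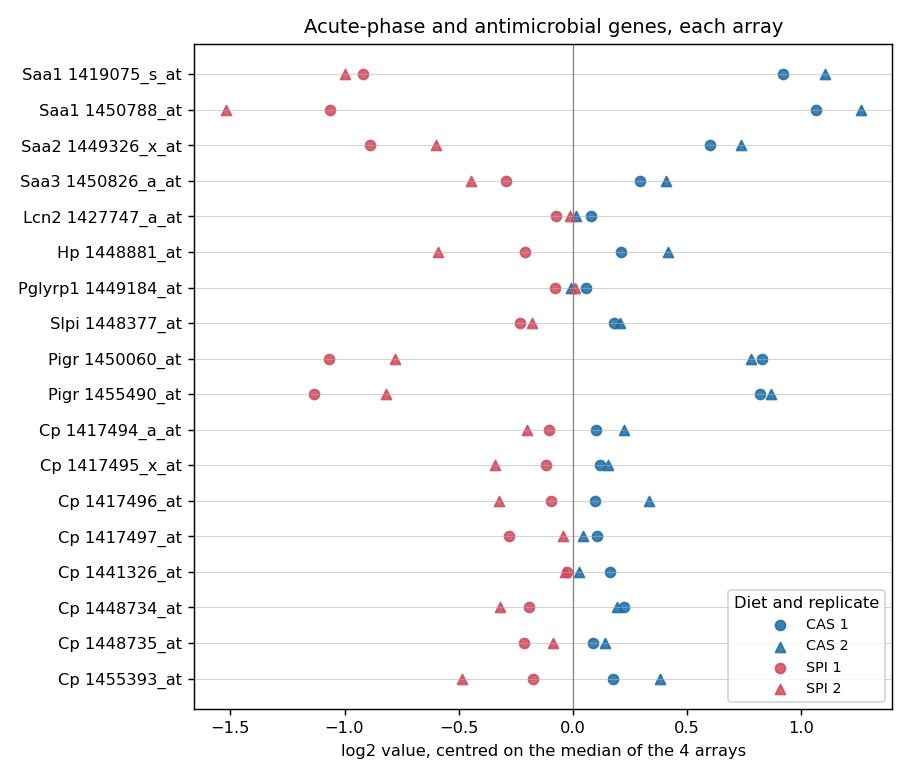
Centred log2 value of each of the 18 probe sets (rows) on each of the 4 arrays, CAS in blue and SPI in red, with replicate 1 as circles and replicate 2 as triangles. Both SPI arrays lie left of both CAS arrays in 17 rows, most widely for Saa1, Pigr and Saa2, and the Pglyrp1 arrays overlap. Of all probe sets 20.5% showed this separation, and the genes were chosen on this contrast.

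Serum amyloid A proteins are small apolipoproteins of high-density lipoprotein that rise steeply in inflammation. Probe set 1450788_at, whose source transcript is Saa1 in RefSeq, read 1.06 and 1.26 under CAS, against -1.06 and -1.52 under SPI. The diets were far apart, with a gap of 2.13 between the nearest arrays, although the SPI arrays themselves differed by 0.45. The difference was -2.45 (95% interval -2.89 to -2.02), or 5.48-fold lower in SPI. Of the 45037 probe sets 5 had a lower one, a rank that is no evidence, since the genes were chosen on this contrast. The second Saa1 probe set, 1419075_s_at, read 0.92 and 1.10 on CAS and -0.918 and -0.997 on SPI, a difference of -1.97 (-2.21 to -1.72). Its ending marks probes shared by related transcripts, and its source transcript is one of Saa2 in RefSeq, so it cannot be assigned to Saa1 rather than Saa2.

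Saa2, the near copy of Saa1, was read by 1449326_x_at alone, another probe set that can bind related transcripts. Its values may therefore not be those of Saa2 alone. It stood at 0.60 and 0.73 on CAS and -0.89 and -0.60 on SPI. The arrays of a diet lay within 0.29 of each other, against a gap of 1.20 between diets. SPI was 2.66-fold lower (2.14 to 3.30). Saa3 is the form that extrahepatic cells, mammary epithelium, adipocytes and macrophages among them, are known to make. Its probe set 1450826_a_at read 0.29 and 0.41 on CAS and -0.29 and -0.45 on SPI. The groups were separate but closer than for Saa1, at a difference of -0.72 (-0.96 to -0.48), 1.65-fold lower. The intervals of Saa3 and of both Saa1 probe sets did not overlap.

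Saa4, the constitutive member of the family, sits between Saa3 and Saa1 in the gene order of GRCm38.p6. It was named after its values were seen. Its 2 probe sets went opposite ways, with differences of -0.12 (limma adjusted p = 0.437) and 0.22 (limma adjusted p = 0.283), and neither passed.

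**Figure D2:**
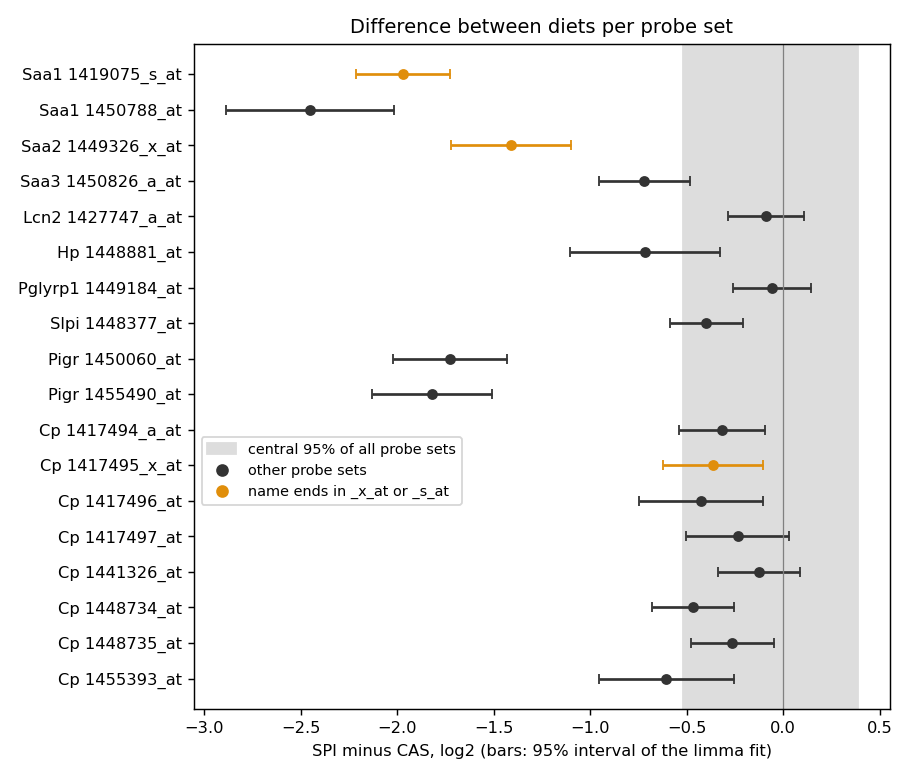
SPI minus CAS difference of each of the 18 probe sets on the log2 scale, with 95% intervals of the limma fit, orange where the name ends in _x_at or _s_at. The grey band holds the central 95% of all probe sets, from -0.52 to 0.39, and Saa1, Saa2 and Pigr lie outside it with their whole intervals. The genes were chosen on this contrast, so the band is no test of them.

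Pigr, the receptor that takes up polymeric IgA and IgM at the basal side of epithelial cells and releases them at the lumen, was lower in SPI by both of its probe sets. Probe set 1450060_at read 0.83 and 0.78 on CAS and -1.07 and -0.78 on SPI. Probe set 1455490_at, designed from a different sequence, read 0.82 and 0.87 on CAS and -1.13 and -0.82 on SPI. Both put SPI replicate 1 lowest, and neither showed overlap between the diets. The differences were -1.73 (-2.02 to -1.43) and -1.82 (-2.13 to -1.51), that is 3.31-fold and 3.53-fold lower, and each lies inside the interval of the other. Luminal markers were also lower under SPI, with a list median of -0.39, and their part in the Pigr values was not tested.

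Of the antimicrobial proteins, Slpi differed a little between diets and Lcn2 and Pglyrp1 hardly at all. Slpi, an inhibitor of neutrophil elastase and other serine proteases, read 0.18 and 0.21 on CAS and -0.23 and -0.18 on SPI. The replicates were close, with a within-diet SD of 0.031, and 10.9% of all probe sets had a smaller one, and the groups were separate. SPI was 1.32-fold lower (1.15 to 1.5).

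Lcn2, or lipocalin 2, withholds iron from bacteria by binding their siderophores. Its array values were 0.077 and 0.014 on CAS and -0.074 and -0.014 on SPI, so the nearest arrays of the 2 diets were 0.028 apart. The difference of -0.09 had an interval from -0.29 to 0.11, which spans 0, and the Saa3 difference lies outside it. Pglyrp1, which binds bacterial peptidoglycan and is stored in neutrophil granules, read 0.056 and -0.0093 on CAS and -0.078 and 0.0093 on SPI. It was the 1 probe set of the 18 whose groups overlapped, at a difference of -0.06 (-0.26 to 0.15). The Lcn2 and Pglyrp1 differences became positive, at 0.07 and 0.10, when the hybridization controls set the centre of each array, as did Cp 1441326_at at 0.03. That centring moved the median of all probe sets from 0.02 to 0.18.

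Hp and Cp are plasma acute-phase proteins that handle iron. Hp, haptoglobin, binds free haemoglobin. Probe set 1448881_at read 0.21 and 0.42 on CAS and -0.21 and -0.59 on SPI, lowest in SPI replicate 2. Its difference of -0.72 (-1.11 to -0.33), 1.64-fold, was about that of Saa3. The arrays of a diet spread more, with a within-diet SD of 0.22 against 0.094 for Saa3.

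Cp, ceruloplasmin, is a copper-containing ferroxidase that helps iron leave cells. It was read by 8 probe sets, 6 of them designed from 1 sequence, so these are not independent readings. All 8 put both SPI arrays below both CAS arrays, as 20.5% of all probe sets did, and none of the 8 was called. The differences ran from -0.61 to -0.12 with a mean of -0.35. The largest, 1455393_at, read 0.17 and 0.38 on CAS and -0.17 and -0.48 on SPI, 1.52-fold lower (1.19 to 1.94). Probe set 1448734_at had close replicates, at 0.22 and 0.19 on CAS and -0.19 and -0.32 on SPI, and a difference of -0.47 (-0.68 to -0.25). The smallest, 1441326_at, read 0.16 and 0.027 on CAS and -0.027 and -0.034 on SPI, and its interval from -0.34 to 0.09 included 0, as did that of 1417497_at (-0.50 to 0.03). The intervals of the other 6 did not reach 0. The probe set 1417495_x_at, marked as able to bind related transcripts, lay among the rest at -0.36.

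The median within-diet SD of the 18 probe sets was 0.11, against 0.092 over all probe sets, and 11 of 18 lay above that value. The widest was that of Saa1 1450788_at (0.25, above 95.2% of all probe sets). SPI replicate 2 was the lower SPI array in 10 of 18 probe sets, and CAS replicate 2 the higher CAS array in 12.

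Il6 and Tnf, cytokines that induce acute-phase genes, fell. Of 20 genes for upstream cytokines and their receptors 3 fell and 0 rose, where 2.2% of all genes had a probe set called lower and 0.456% one called higher. At an unadjusted p under 0.05 limma had 6 lower and 1 higher, where 13.4% of all genes had a probe set lower and 15.3% one higher at that threshold. The same shares stand behind each unadjusted count of genes in the lists that follow. Il6, the main inducer in liver, read 0.49 and 0.71 on CAS and -0.49 and -0.71 on SPI, 2.30-fold lower (1.86 to 2.84, limma adjusted p = 0.024). Tnf was 2.15-fold lower (1.65 to 2.80, limma adjusted p = 0.0454). Il1r1, the signalling receptor of IL-1, was 2.05-fold lower by 1448950_at (1.75 to 2.39, limma adjusted p = 0.0168), while its other probe set, at -0.13, did not pass. The median of the list was -0.05, beside 0.03 over all genes.

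Among 18 signalling and transcription factors that act on acute-phase genes 2 fell and 0 rose (8 and 3 at an unadjusted p under 0.05). Nfkbia, the inhibitor of NF-kappaB that NF-kappaB itself induces, was 1.56-fold lower by 1448306_at (1.35 to 1.80, limma adjusted p = 0.0408), and its other 4 probe sets lay between -0.57 and -0.27 without passing. Bcl3, a nuclear relative of that inhibitor, was 1.53-fold lower (1.32 to 1.77, limma adjusted p = 0.0451). The median was -0.03.

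Of 26 other acute-phase proteins, most of them made by the liver, 0 fell and 1 rose (3 and 4 at an unadjusted p under 0.05). The gene that rose was Ptx3, a long pentraxin made at sites of inflammation, 1.53-fold higher by 1418666_at (1.33 to 1.76, limma adjusted p = 0.0414), and its other probe set, at 0.20, did not pass. The list had a median of 0.05, and 11 of the 26 had no probe set at level 4 or above, a coarse class read from the digits of the deposited values. Of the 18 probe sets of the described genes 17 were at 4 or above (Pglyrp1 was not), beside 30257 of all 45037. The class is rough: 12 of 44 probe sets for olfactory receptors were also at 4 or above, and 1 Krt14 probe set was placed under 2.

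Of 28 other secreted antimicrobial proteins 2 fell and 1 rose (7 and 2 at an unadjusted p under 0.05), with a median of -0.03. Ltf, the iron-binding lactoferrin of milk and neutrophil granules, read 1.03 and 0.84 on CAS and -0.84 and -1.03 on SPI, 3.66-fold lower (3.02 to 4.45, limma adjusted p = 0.00707). Wfdc2, a whey acidic protein family member like Slpi, was 3.34-fold lower (2.5 to 4.45, limma adjusted p = 0.021). Ang, a secreted ribonuclease, was higher by 3.35 and 2.34 on the log2 scale through 1438936_s_at and 1438937_x_at (limma adjusted p = 0.00336 and 0.00681). Both of these can bind related transcripts. The third Ang probe set, without that mark, was at 0.29 (limma adjusted p = 0.221).

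Of 26 genes for receptors and binding partners of the 9 proteins 5 fell and 0 rose (10 and 5 at an unadjusted p under 0.05), with a median of -0.06. Jchain, which joins the IgA and IgM polymers that Pigr carries, read 0.54 and 0.66 on CAS and -0.54 and -1.06 on SPI, 2.63-fold lower (1.90 to 3.64, limma adjusted p = 0.0419). Ighm, the heavy chain of IgM, was called lower by 3 of its 11 probe sets, at -1.59, -1.41 and -0.76, while the other 8 lay between -0.07 and 0.20. Igha, the heavy chain of IgA, went the other way at 0.98, 1.44 and 0.20 over its 3 probe sets, none of which passed, highest on SPI replicate 1. It was named after its values were seen. Tlr4, the endotoxin receptor, was 1.82-fold lower by 1418162_at (limma adjusted p = 0.0266), and its other 3 probe sets, at -0.59, -0.54 and 0.10, did not pass. Anxa2 and Plscr1, membrane proteins reported to bind Slpi, were 1.68-fold and 1.45-fold lower by 1 of 3 probe sets each (limma adjusted p = 0.0351 and 0.0465), the Plscr1 one marked as able to bind related transcripts. When the hybridization controls set the centre, the median of each of these 5 lists was above 0, from 0.09 to 0.20. The median of all probe sets was then 0.18. With any 1 array left out limma called 0 of the probe sets of these lists, and between 52 and 57 of 211 had an unadjusted p under 0.05 (10.8% to 14.5% of all probe sets), against 71 with all 4 (17.8%).

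**Figure D3:**
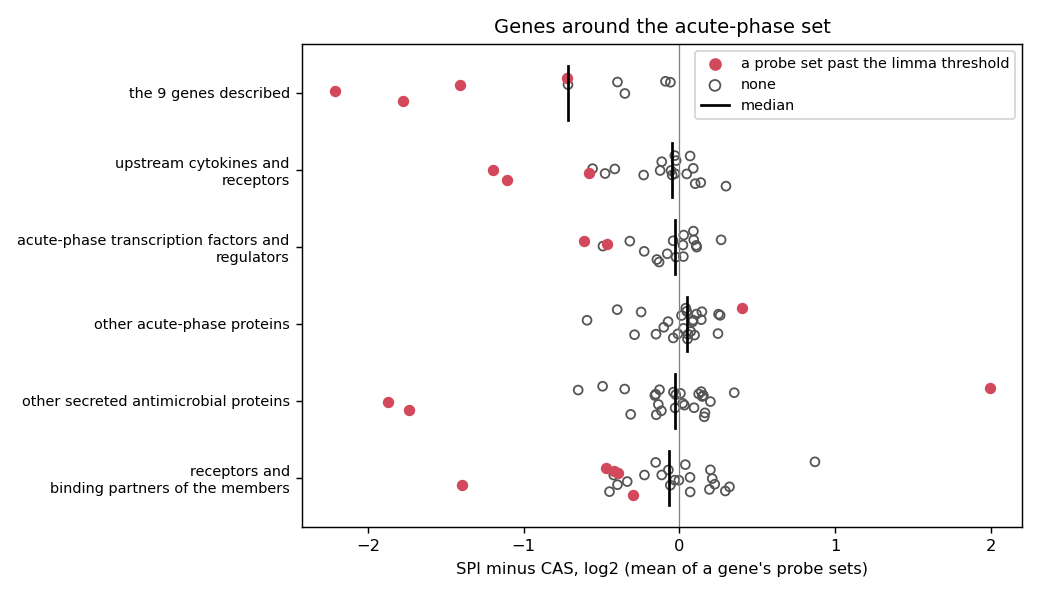
SPI minus CAS difference of each gene on the log2 scale, as the mean of its probe sets, for the 9 genes described and 5 lists of related genes, red where a probe set passed the limma threshold, with a black line at the list's median. The lists have medians between -0.06 and 0.05. When the hybridization controls set the centre the list medians all lie above 0, and the median of all probe sets is 0.18. The 9 genes were chosen on this contrast.

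Markers of some other cell types, the luminal, fibroblast, endothelial and milk lists, also lay lower under SPI on these arrays. In a sorted population fewer cells of a type and less RNA per cell cannot be told apart. All 13 basal and myoepithelial markers had a probe set in the highest level class (8 to 16), among them Krt5, Krt14, Trp63 and Acta2, as did 15 of 19 luminal markers. Over all genes 7133 of 18193 had one. The basal list had a median of -0.069 and -0.056 under CAS and 0.024 and 0.037 under SPI, and 1 of the 13 rose while 0 fell (4 and 0 at an unadjusted p under 0.05, limma). Over their probe sets, Krt14 lay between -0.01 and 0.48, Acta2 between -0.04 and 0.16, and Trp63 between 0.16 and 0.54, with Krt5 at -0.04, and none of these passed. The gene that rose was Oxtr, the oxytocin receptor of myoepithelial cells, at 0.68 by 1440888_at (limma adjusted p = 0.027) and at 0.30 by its other probe set, which did not pass. Lgals7 had the largest gene mean of the list, 0.58, without passing. Both were named after their values were seen.

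Luminal epithelial cells are a known source of Pigr and of milk proteins. Of 19 luminal markers 9 fell and 0 rose (14 and 1 at an unadjusted p under 0.05), with medians of 0.23 and 0.23 on CAS and -0.19 and -0.32 on SPI, led by Aldh1a3 (-1.15) and Ly6d (-1.12). Of 10 milk and alveolar genes 3 fell and 0 rose (7 and 0 unadjusted), led by Glycam1 (-3.78) and Wap (-2.95). The list medians were 0.14 and 0.33 on CAS and -0.10 and -0.38 on SPI. Of 15 fibroblast markers 12 fell and 0 rose (13 and 1 unadjusted), with medians of 0.51 and 0.56 on CAS and -0.56 and -0.56 on SPI, led by Lum (-2.32) and Dpt (-1.75). Endothelial markers had medians of 0.30 and 0.25 on CAS and -0.18 and -0.31 on SPI. Of the 10, 2 fell, Plvap (-0.86) and Cdh5, and 0 rose (9 and 0 unadjusted), while Tek (-0.86) did not pass.

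Neutrophils carry Lcn2, Pglyrp1, Ltf and Slpi. Of 12 neutrophil markers 1 fell and 0 rose (3 and 1 at an unadjusted p under 0.05). The gene that fell was Ltf, which epithelium also makes, and S100a8 was at -0.49 without passing. The list median was 0.033 and 0.043 on CAS and -0.097 and -0.029 on SPI. Of 14 macrophage markers limma called 0 (2 lower and 6 higher at an unadjusted p under 0.05), with Cd68 at 0.51 and C1qa at 0.46, and a median of -0.11 and -0.048 on CAS and 0.048 and 0.11 on SPI. Of 10 adipocyte markers 1 fell, Lpl (-1.72), and 0 rose (4 and 1 at an unadjusted p under 0.05). Fabp4 was at -0.39 and Adipoq, named after its values were seen, at 0.38, neither passing. The adipocyte medians were 0.049 and 0.091 on CAS and -0.033 and -0.042 on SPI. With centring on the hybridization controls the neutrophil and adipocyte medians were above 0, at 0.02 and 0.04, beside 0.18 over all probe sets. Neutrophil and antimicrobial lists share genes, Ltf among them. The part of any of these cell types in the values of the 9 genes was not tested.

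**Figure D4:**
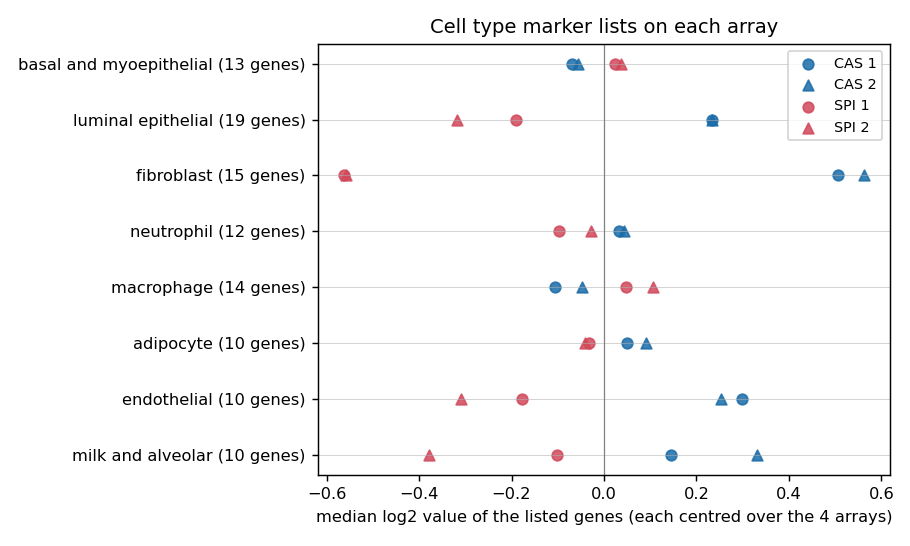
Median centred log2 value of each cell type marker list on each array, CAS in blue and SPI in red, with replicate 1 as circles and replicate 2 as triangles. Fibroblast, endothelial, luminal and milk lists lie lower on the SPI arrays, the fibroblast list from 0.51 and 0.56 on CAS to -0.56 on both SPI arrays, and the basal and macrophage lists lie slightly higher.

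The genes nearest in pattern to Saa1 and Pigr, the genes with the largest differences, were found as the smallest root mean square difference over the 4 arrays among 13711 genes, at level 4 or above, leaving out probe sets that can bind related transcripts. For Saa1 they were Ifit1 (0.13 on the log2 scale), Crabp1 (0.16) and Tmprss11a (0.22). For Pigr they were Mmp3 (0.089), Pla1a (0.092) and Hc (0.094). Over 4 arrays, genes with a diet difference of like size come out near each other by this measure.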

How the data were processed

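RNA from sorted cells was hybridized to 4 arrays. The deposited table holds log2 values, for which the submitters' processing notes name GCOS and RMA, without versions in the sources used here. Per the labels' protocols, total RNA was copied through cDNA into biotin-labelled RNA. The values had a median of 0 over the 4 arrays in every probe set (to within 5e-07), a centring no label records, so levels are lost. No genome build is named. Of 45101 probe sets 64 were controls. Symbols came from the platform annotation, updated by gene ID (34741 of 34945 matched).

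All 45037 non-control probe sets were fitted with limma 3.58.1 in R 4.3.3 (lmFit, eBayes, two-sided, no block, no trend), with Benjamini-Hochberg adjustment. The fit was tested on simulated data. A list's gene counts as fallen or risen where any of its probe sets was called. The members and lists were chosen with earlier results of these data known. Named are all 9 genes, called genes of the pathway lists, Krt5, Krt14, Trp63 and Acta2, the 2 largest differences of each other marker list, and the 3 nearest patterns. Same-numbered arrays did not deviate together (correlation -0.099), and the labels do not pair them. Alternatives were a replicate block, each array left out, other centrings, a level filter or trend, gene means, other thresholds, and no _x_at or _s_at probe sets. Precision is limited by the number of arrays.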

Additional observations from a re-analysis of the deposited data

How the results depend on the processing

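Of all probe sets 676 were called (112 higher and 564 lower in SPI), and of the 18 probe sets of the 9 genes 6, and of those of the pathway lists 17. With the replicate number as a block, which the labels do not support as a pairing, these became 79, 2 and 6. With 1 array left out, where the lone array of a diet is assumed to vary like the others, all were 0 (0 to 0). With arrays centred on the hybridization controls 2261 were called (1557 higher, 704 lower), and 7 of the 18. With the filter at level 4 there were 1175 calls among 30257 probe sets, with 8 of the 17 left for the described genes. A trend over the level class gave 1270 calls, with 8 of the 18. An adjusted p under 0.01 gave 114 calls in all and 5 in the pathway lists, and one under 0.1 gave 1579 and 29. Without _x_at and _s_at probe sets 569 were called in all. Of the 9 genes 15 probe sets were left, none of them for Saa2, and 4 of these were called. Fitted as gene means, 5 of the 9 genes were called, Slpi added to the 4, and 727 of all 18193 genes. In the main fit 483 of all genes had a called probe set. Centring on the controls moved 12 of the 18 differences by more than the within-diet SD and put those of Lcn2, Pglyrp1 and Cp 1441326_at above 0. The block, the level settings and the suffix filter cannot change a difference, and leaving out an array cannot move it beyond that SD, so these say nothing of its stability. The spread of 2 arrays per diet is the limit, and absolute levels are not known.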
